A study of Bos grunniens with 6 samples.

Results

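The miR-29 family comprised 6 of the 2853 entries in the deposited miRNA table of this study of yak (Bos grunniens) hair follicle cells. The members were taken by name, as every row called miR-29a, miR-29b, miR-29c, miR-29d or miR-29e with or without an arm suffix. They were bta-miR-29a, bta-miR-29b, bta-miR-29c, bta-miR-29d-3p, bta-miR-29d-5p and bta-miR-29e, where bta stands for the cattle names that 757 of the entries carry. Small RNA was sequenced from wild-type cells isolated from skin and grown in culture. Dermal papilla cells, which are mesenchymal and lie in the bulb of the follicle, had 3 libraries, and hair matrix cells, the epithelial cells that divide to form the hair shaft, had 3. Both were kept in the same medium with serum, IGF1 and EGF. The labels call the libraries of a cell type biological replicates but name neither animals nor separate cultures, so p-values here rest on the spread among libraries, which may be technical. Per the series title, the study set the miRNA profiles of these cells side by side.

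miRNAs are short RNAs that guide Argonaute proteins to messenger RNAs, mostly by pairing through the seed, bases 2 to 8 counted from the 5′ end. The miR-29 family is known for repressing messenger RNAs of the extracellular matrix, among them collagens, fibrillin and elastin, and its level falls in fibroblasts exposed to TGF-beta. In mammals miR-29a and a copy of miR-29b are made from the same primary transcript, and miR-29c and another copy of miR-29b from a different transcript. The mature miR-29b of both copies is the same, so its reads cannot be assigned to either.

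The sequences of the members are shown because the seed and the few bases that separate the rows bear on every value that follows. They are printed 5′ to 3′ as the deposited table gives them, with T for U and with bases 2 to 8 of each entry in capitals.
bta-miR-29a: cTAGCACCatctgaaatcggtta
bta-miR-29b: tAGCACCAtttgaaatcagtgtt
bta-miR-29c: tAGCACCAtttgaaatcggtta
bta-miR-29d-3p: tAGCACCAtttgaaatcgatta
bta-miR-29e: tAGCATCAtttgaaatcagtgttt
bta-miR-29d-5p: tGACCGATttctcctggtgtt

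The rows miR-29b, miR-29c and miR-29d-3p, had the seed AGCACCA at bases 2 to 8. The miR-29a entry carried 1 more base at its 5′ end, so the same letters stood at its bases 3 to 9 and its own bases 2 to 8 read TAGCACC. miR-29e differed from miR-29b by C6T, inside the seed, over 23 aligned bases (positions counted from 1 at the 5′ end of the row named first). miR-29c differed from miR-29a by C11T alone over 22 aligned bases, in the numbering of miR-29a, and from miR-29d-3p by G19A alone, in the numbering of miR-29c. miR-29d-5p comes from the opposite arm of the hairpin and had a seed of its own. Reads of rows 1 base apart could be divided in more than 1 way, and the authors' rule for such reads is not given in the sources used here. Outside the family, 0 entries lay within 1 mismatch of a member over at least 18 aligned bases, and 0 had a member's seed at bases 2 to 8.

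Values are in RPM, the reads of a row scaled to the library total, which was 23904796 to 24693655 reads. RPM carry no term for length, and the members are 21 to 24 bases long. A floor of 3 reads lay at 0.121 to 0.125 RPM per library and covers counting error only. The labelled cell types were checked against miRNA markers. The mesenchymal list summed to 88413 to 91201 RPM in dermal papilla and 1204 to 1421 RPM in hair matrix libraries, led by miR-143 and miR-199a-3p. The epithelial list summed to 82.9 to 108 RPM and 22064 to 22261 RPM, led by miR-200c and miR-200a. All 6 tested entries of each list were called in the direction of the label. Among the 503 tested miRNAs, calls toward dermal papilla made up 25.2% and those toward hair matrix 19.9%. The blood list, led by miR-451 and miR-150, summed to 19.3 to 21.5 RPM and 8.50 to 11.8 RPM, and the endothelial list, led by miR-126-3p, to 3.68 to 4.70 RPM and 2.57 to 4.01 RPM. The melanocyte list, nearly all miR-204, summed to 73.9 to 99.4 RPM and 2.41 to 2.83 RPM, and the muscle list, nearly all miR-1, to 57.9 to 72.7 RPM and 24.6 to 26.3 RPM. Both miR-204 and miR-1 passed the test toward dermal papilla cells, where the melanocyte marker miR-211 was listed at 0. The part of such cells in the miR-29 values was not tested.

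Within the family, miR-29b, miR-29c and miR-29d-5p rose more than 4-fold in hair matrix cells relative to dermal papilla cells. miR-29a, which held nearly all miR-29 reads, was 1.15-fold higher there and was not called, and miR-29d-3p was not called. A miRNA was called at a limma adjusted p under 0.05 and at least 2-fold on the log2(RPM + 1) scale. The added 1 makes the change of low rows look smaller. By this rule 3 of the 5 tested members were called higher in hair matrix cells, and 0 were called higher in dermal papilla cells. miR-29d-5p was under 1 RPM in every dermal papilla library and passed the filter through hair matrix cells alone, so its direction followed from the filter. Without it 2 of 4 members were called. Of the 503 miRNAs tested, 19.9% were called higher in hair matrix cells and 25.2% higher in dermal papilla cells. That background depends on the scaling, since the 127 calls toward dermal papilla and 100 toward hair matrix cells became 109 and 137 after median centring and 112 and 128 after quantile normalization. With edgeR and DESeq2 the count of members called toward dermal papilla cells was also 0, against 143 and 151 of the 503 tested. At any p, 0 of the 4 tested members other than miR-29d-5p had a higher level in dermal papilla cells. Over all tested miRNAs the median change lay near 0, so both directions were about equally common. The median log2 change, dermal papilla minus hair matrix, was -0.95 over the 4 members other than miR-29d-5p and -0.01 over all tested miRNAs, which include rows that passed the filter through 1 cell type. The sixth member, miR-29e, stayed under the filter on low values and was not tested.

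**Figure D1:**
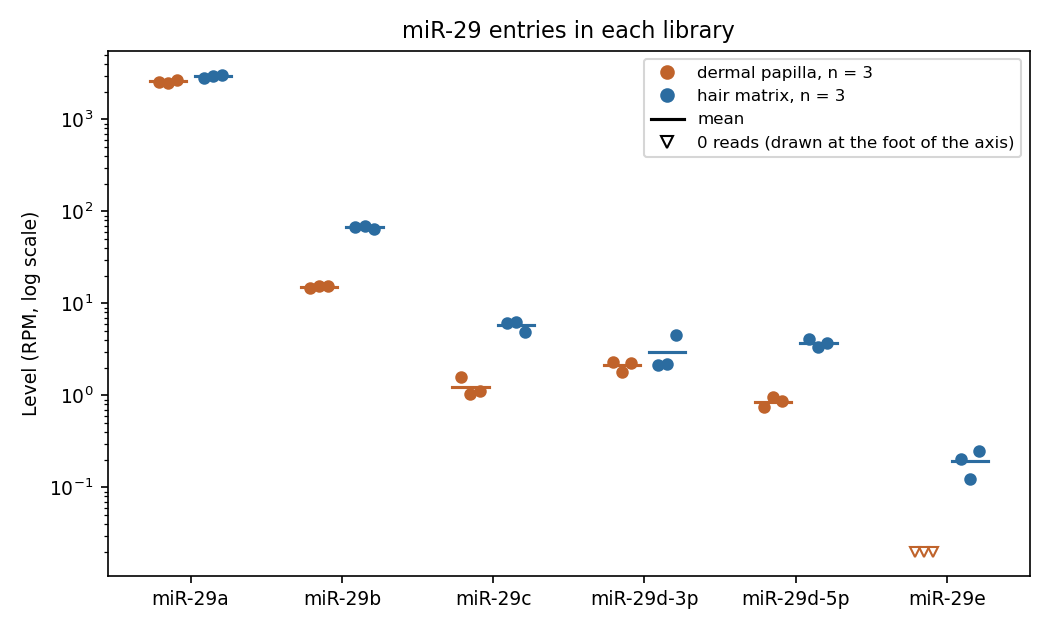
Level of each miR-29 row in each library, in RPM on a log axis, with a bar at the mean of the 3 libraries of a cell type. The hair matrix points of miR-29b, miR-29c and miR-29d-5p lie above all dermal papilla points, and so, by a narrow gap, do those of miR-29a. The points of miR-29d-3p overlap, and miR-29e has 0 reads in all 3 dermal papilla libraries. The miR-29d-5p row passed the filter through hair matrix cells alone.

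miR-29a, the abundant member, was at 2580.3, 2488 and 2683 RPM in dermal papilla replicates 1, 2 and 3, and at 2828.5, 2998 and 3069 RPM in hair matrix replicates 1, 2 and 3. All hair matrix libraries were above all dermal papilla libraries, with a narrow gap between them. The means were 2584 ± 97.7 (SD, n = 3) and 2965 ± 124 RPM, resting on 59545 to 73682 reads per library. The log2 change was -0.20 ± 0.047 (SE), with a limma adjusted p of 0.00582 and a size under the 2-fold minimum. With DESeq2 the adjusted p was 0.0748, at a log2 change of -0.13. Median centring gave -0.47 and quantile normalization -0.53, with the median of all tested miRNAs at -0.29 and -0.23. Of the tested miRNAs, 43.1% had a larger change toward hair matrix cells. By level miR-29a ranked 30th of all entries in each dermal papilla library and 23rd or 24th in hair matrix libraries.

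miR-29b was at 14.9, 15.3 and 15.6 RPM in dermal papilla replicates 1 to 3 and at 67.7, 69.5 and 64.7 RPM in hair matrix replicates 1 to 3. The cell types did not overlap, and the lowest hair matrix library was far above the highest dermal papilla library. The means were 15.3 ± 0.391 and 67.3 ± 2.42 RPM, a 4.41-fold difference from 355 to 379 and 1553 to 1701 reads per library. The log2 change was -2.07 ± 0.062 (limma adjusted p = 4.93e-08). Only 7.55% of the tested miRNAs changed more in this direction. miR-29b was the one member called under every setting run.

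miR-29c, whose human counterpart shares a transcript with a copy of miR-29b, was much lower. Its levels were 1.59, 1.04 and 1.11 RPM in dermal papilla replicates 1 to 3 and 6.20, 6.29 and 4.87 RPM in hair matrix replicates 1 to 3. The groups did not overlap. The means were 1.25 ± 0.297 and 5.79 ± 0.792 RPM, 4.63-fold apart, from 25 to 38 and 117 to 154 reads per library. The log2 change was -1.59 ± 0.13 (limma adjusted p = 1.78e-05). A pseudocount of 10 in place of 1 gave -0.49 and ended the call, since it exceeds the level of the row. Summed with miR-29d-3p, a row 1 base away, the log2 change was -1.16 (limma adjusted p = 3.85e-05). miR-29a is also 1 base away over the aligned bases. With miR-29a in the sum as well, which then held nearly all its reads, the log2 change was -0.20 (limma adjusted p = 0.00552), under the 2-fold minimum.

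The arms named miR-29d differed from each other. miR-29d-3p was at 2.30, 1.80 and 2.27 RPM in dermal papilla replicates 1 to 3 and at 2.15, 2.21 and 4.58 RPM in hair matrix replicates 1 to 3. Only hair matrix replicate 3 was above the dermal papilla libraries, and the groups overlapped. The means were 2.12 ± 0.282 and 2.98 ± 1.39 RPM, and the log2 change of -0.30 ± 0.23 (SE) did not pass the test (limma adjusted p = 0.258). Without hair matrix replicate 3 the log2 change was -0.03.

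miR-29d-5p, from the other arm, was at 0.753, 0.961 and 0.866 RPM in dermal papilla replicates 1 to 3 and at 4.13, 3.39 and 3.75 RPM in hair matrix replicates 1 to 3. Here the groups did not overlap. The means were 0.860 ± 0.104 and 3.76 ± 0.370 RPM, 4.37-fold apart, from 18 to 23 and 83 to 102 reads per library. The log2 change was -1.35 ± 0.093 (limma adjusted p = 6.17e-06), and a pseudocount of 10 gave -0.34 and ended the call. Under 1 RPM in every dermal papilla library, the row passed the filter through hair matrix cells alone, so its direction followed from the filter. The level of the 5p arm was 32.7% to 53.5% of that of the 3p arm in dermal papilla cells and 81.8% to 192% in hair matrix cells. On the log2 scale this ratio differed by -1.05 (exact permutation p = 0.1, two-sided).

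In a hairpin the arms pair with each other, so the bases of miR-29d-5p were compared with those of each 3p row. The longest stretch of uninterrupted Watson-Crick complementarity is in capitals below, within the 5p arm as it pairs with miR-29c and then within the 3p rows.
bta-miR-29d-5p: tgACCGATTTCtcctggtgtt
bta-miR-29c: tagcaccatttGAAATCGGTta
bta-miR-29a: ctagcaccatctGAAATCGGTta
bta-miR-29d-3p: tagcaccatttGAAATCGatta

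The stretch was 9 bases with miR-29c and with miR-29a, 7 with the row that shares the name, miR-29d-3p, and 6 with miR-29b and miR-29e. This is a match of letters, and which hairpin the reads came from was not tested. In level the 5p row was 47.4% to 92.0% of miR-29c in dermal papilla cells and 53.9% to 76.9% in hair matrix cells, so the ranges overlapped (difference in log2 ratio 0.24, exact permutation p = 0.3). A p above the threshold does not show that these rows move alike.

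miR-29e was listed at 0 in all 3 dermal papilla libraries and at 0.202, 0.123 and 0.250 RPM in hair matrix replicates 1 to 3. These were 5, 3 and 6 reads, at or just above the floor. Over the group, 0 of 72088645 reads allow up to 0.0416 RPM in dermal papilla cells, and 14 of 73185116 reads gave 0.191 RPM in hair matrix cells. With dermal papilla cells set at that limit, the row was at least 4.60-fold higher in hair matrix cells. This bound takes the 14 hair matrix reads as they are, without their own counting error. Its 14 reads were 0.284% of those of miR-29b, from which it differs by C6T.

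Leaving out miR-29d-5p, whose direction the filter fixed, 3 of 4 tested members had a limma adjusted p under 0.05 toward hair matrix cells at any fold. The share over all tested miRNAs was 40.6%. For 3 of the 4 every hair matrix library was above every dermal papilla library, which held for 42.3% of all tested. The order of the levels differed between the cell types. In dermal papilla cells it ran miR-29a, miR-29b, miR-29d-3p, miR-29c, miR-29d-5p and miR-29e, and no neighbours overlapped. In hair matrix cells it ran miR-29a, miR-29b, miR-29c, miR-29d-5p, miR-29d-3p and miR-29e, where miR-29d-5p and miR-29d-3p overlapped.

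**Figure D2:**
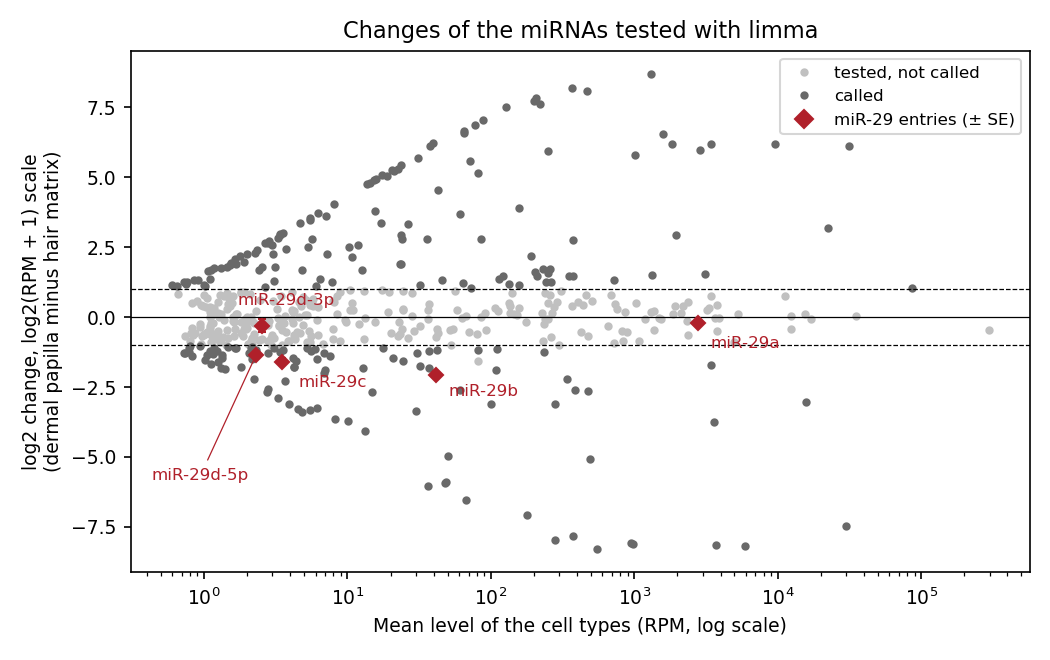
Log2 change (dermal papilla minus hair matrix) against mean level in RPM, on a log axis, for the 503 tested miRNAs, with dashed lines at 2-fold and miR-29 rows as red diamonds with their SE. The abundant miR-29a lies near 0 at -0.20, and miR-29b, miR-29c and miR-29d-5p lie below the lower line.

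The family sum followed its most abundant member. It was 2599.8, 2507 and 2703 RPM in dermal papilla replicates 1 to 3 and 2909, 3079 and 3147 RPM in hair matrix replicates 1 to 3. The groups did not overlap, and the ratio of the means, 2603 ± 98.0 and 3045 ± 123 RPM, was 1.17. Of all reads on listed rows, 0.358% ± 0.0177 and 0.420% ± 0.0216 belonged to the family. Of the difference of 442 RPM between the sums, 86.3% lay in miR-29a and 11.8% in miR-29b. These sums were given no test, since the members were chosen with results known. The value depends on how the family is read. Restricted to the rows with AGCACCA at bases 2 to 8, which leaves out miR-29a through its extra 5′ base, the sum was 18.6 ± 0.452 and 76.0 ± 1.91 RPM, 4.08-fold higher in hair matrix cells.

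Members other than miR-29a were a small part of the family in both cell types. They made up 0.750%, 0.762% and 0.736% of the sum in dermal papilla replicates 1 to 3 and 2.76%, 2.65% and 2.48% in hair matrix replicates 1 to 3. The means were 0.749% ± 0.0131 and 2.63% ± 0.140, so the hair matrix share was 3.51 times as large. miR-29b held most of it, at 0.587% ± 0.0206 and 2.21% ± 0.141 of the sum. miR-29c held 0.0480% ± 0.0114 and 0.191% ± 0.0314. miR-29d-5p held 0.0331% ± 0.00477 and 0.124% ± 0.0165, and miR-29d-3p 0.0814% ± 0.00871 and 0.0970% ± 0.0421. In these bulk libraries fewer cells of a type and less RNA per cell cannot be told apart.

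**Figure D3:**
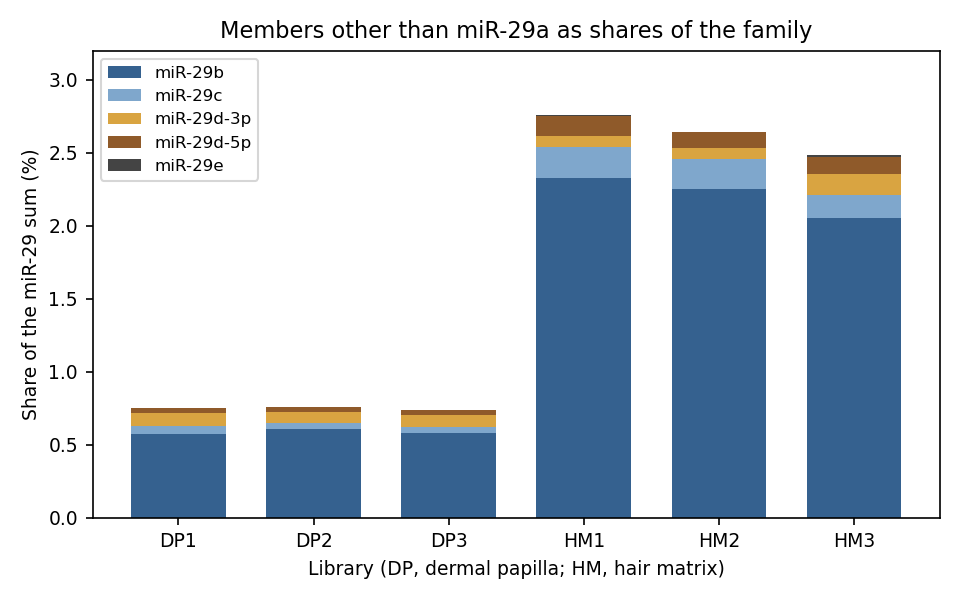
Share of the miR-29 sum, in percent, held by each member other than miR-29a in each library (DP, dermal papilla; HM, hair matrix), as stacked bars from 0. The bars reach 0.736% to 0.762% in dermal papilla and 2.48% to 2.76% in hair matrix libraries, mostly miR-29b.

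The share of a member relative to another in the same library does not depend on how libraries are scaled to each other, whereas a log2 ratio of RPM + 1 values does so for low rows. The level of miR-29b was 0.576%, 0.615% and 0.583% of miR-29a in dermal papilla replicates 1 to 3 and 2.39%, 2.32% and 2.11% in hair matrix replicates 1 to 3. The log2 ratio of RPM + 1 values was -7.31 ± 0.050 and -5.44 ± 0.094, a difference of -1.87 with no overlap. For miR-29c the level was 0.0415% to 0.0616% and 0.159% to 0.219% of miR-29a, a difference in log2 ratio of -1.40, also with no overlap. For miR-29d-3p it was 0.0722% to 0.0892% and 0.0736% to 0.149%, and the groups overlapped (exact permutation p = 1). Of 8 ratios compared, 6 had an exact permutation p of 0.1, the smallest that 3 against 3 libraries allow, with adjusted values of 0.133. So none of the 8 could pass 0.05 in this design. The 6 include the ratios of miR-29d-5p to miR-29a and to miR-29d-3p, and miR-29d-5p passed the filter through hair matrix cells alone. They also include the ratio of miR-29c to miR-29b, whose separation appeared only with the added 1.

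miR-29c was also set against miR-29b, since a copy of miR-29b shares its transcript in mammals. The level of miR-29c was 6.83% to 10.7% of miR-29b in dermal papilla cells and 7.53% to 9.16% in hair matrix cells, so the ranges of these shares overlapped. With 1 added to both levels the log2 ratio was -2.86 ± 0.21 and -3.34 ± 0.13, which did not overlap (difference 0.48, exact permutation p = 0.1). The added 1 is close to the dermal papilla level of miR-29c and raises the ratio most there. Without it the shares were 10.7%, 6.83% and 7.12% in dermal papilla replicates 1 to 3. They were 9.16%, 9.05% and 7.53% in hair matrix replicates 1 to 3. The separation appeared only with the added 1 and is not read as a difference between the cell types.

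**Figure D4:**
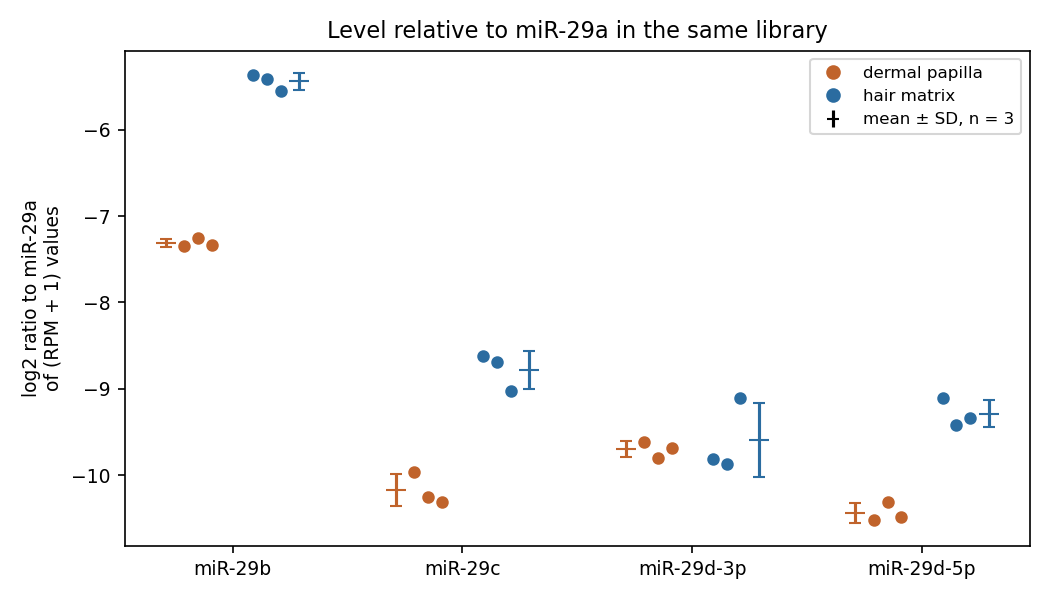
Log2 ratio of RPM + 1 of 4 members to that of miR-29a in the same library, with each library as a point and the mean ± SD beside the points (n = 3). The ratios of miR-29b, at -7.31 and -5.44 on average, and those of miR-29c separate the cell types, and those of miR-29d-3p do not. Those of miR-29d-5p also separate them, but that row passed the filter through hair matrix cells alone.

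The miRNAs most like each of the 3 main members were sought by the smallest Euclidean distance between centred log2(RPM + 1) profiles over the 6 libraries, among rows with cattle names and a mean of at least 10 RPM. For miR-29a these were miR-1271, miR-99a-5p and miR-32, at distances of 0.156 to 0.180 against a median of 1.43 over 221 rows. miR-1271 was at 215 ± 5.39 and 257 ± 7.48 RPM. For miR-29b they were miR-92b, miR-34a and miR-2285l, at distances of 0.268 to 0.378, and miR-92b, at 119.9 ± 5.68 and 556 ± 36.4 RPM, had a ratio of means of 4.64 toward hair matrix cells. For miR-29c they were miR-221, miR-652 and miR-2336, at distances of 0.403 to 0.451. Their ratios of means toward hair matrix cells were 3.29, 3.55 and 3.11, under the 4.63 of miR-29c, whose change the added 1 makes smaller. The 6 libraries fall into 2 groups, so the distance takes in the difference between the cell types as well as the spread within them.

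Other miRNAs known from collagen control and fibrosis were read from a list of names. Of those reported to lower collagens or the matrix-linked growth factor CTGF (let-7a, miR-18a, miR-19a, miR-19b, miR-26a, miR-26b, miR-30a to miR-30f, miR-133a, miR-133b and miR-196a), 15 of 17 entries were tested and 0 were called with limma. Their unadjusted p was under 0.05 for 11, and at any fold 4 were higher in dermal papilla cells at an adjusted p under 0.05 and 7 in hair matrix cells. The shares of all tested miRNAs were 42.1% and 40.6%. edgeR called 1, let-7a-3p, named here after its value was seen, and DESeq2 called 0. Of all 503 tested, edgeR called 143 higher in dermal papilla and 141 higher in hair matrix cells, and DESeq2 151 and 135. The abundant let-7a-5p was at 16158 ± 1965 and 15030.2 ± 882 RPM (limma adjusted p = 0.339). The median log2 change of this list was -0.09. By level, its entries summed to 36371 to 41135.5 RPM in dermal papilla and 30443.9 to 32371.4 RPM in hair matrix libraries, without overlap.

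Of the miRNAs known to be raised by TGF-beta in fibroblasts, 5 of 8 tested entries were called higher in dermal papilla cells, against 25.2% of all tested, and 3 were not called. Those 3 had an adjusted p under 0.05 toward hair matrix cells at less than 2-fold on the log2(RPM + 1) scale. The median log2 change was 5.88. The 5 were miR-143, miR-145, miR-199a-3p, miR-199a-5p and miR-214, which are also on the mesenchymal marker list, with log2 changes of 6.10, 6.56, 6.19, 5.80 and 5.95. miR-21-5p, the most abundant of them, was at 249535 ± 10032 and 344206 ± 7940.0 RPM, a log2 change of -0.46. edgeR and DESeq2 each called 1 entry of this list higher in hair matrix cells.

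**Figure D5:**
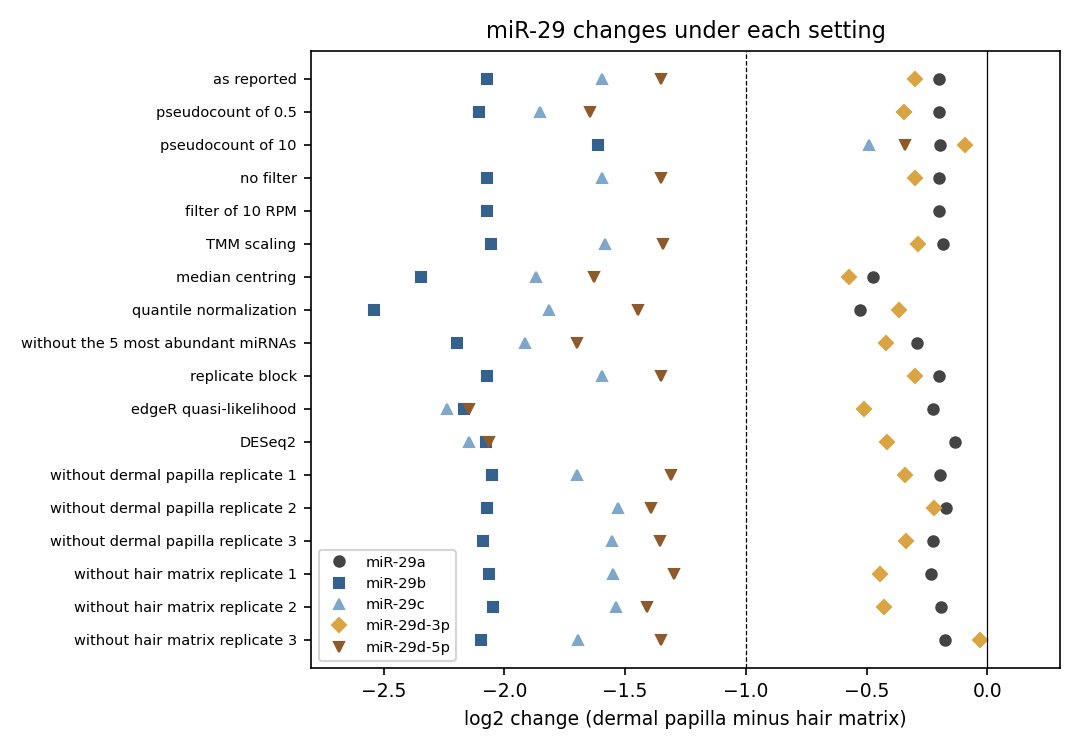
Log2 change (dermal papilla minus hair matrix) of the 5 tested members under the reported setting and each alternative, with a dashed line at 2-fold. miR-29b stays beyond the line throughout, miR-29c and miR-29d-5p lie within it only with a pseudocount of 10 and were not tested with a filter of 10 RPM, and miR-29a and miR-29d-3p lie within it wherever they were tested, which for miR-29d-3p leaves out the filter of 10 RPM.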

How the data were processed

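Small RNA from 6 libraries was analysed, 3 per cell type, grouped by the labels' titles. The authors deposited values named TPM that are reads scaled to a fixed library total (RPM), since in each library 100% of values above 0 are whole multiples of 1 step within 0.001 read. Whole reads were recovered from those steps, and listed rows hold 71.7% to 73.5% of each library total. Trimmomatic, HISAT2 2.2.1.0 and DESeq 1.20.0 appear in the submitters' processing notes, with no role stated. Build and miRNA reference: not given in the sources used here. Genome positions were not used.

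Rows with at least 1 RPM in at least 3 libraries (503) were fitted as log2(RPM + 1) with limma 3.58.1 (R 4.3.3) on cell type, with a mean trend in the variances and Benjamini-Hochberg adjustment over all tested rows. Members were read from this fit. Ratios were tested by exact permutation in scipy 1.17.1, adjusted over the 8 ratios. This fit was checked on simulated data. The replicates of a cell type differed beyond counting noise (chi-square per degree of freedom 26.6 to 76.8). The members, lists and tests were chosen with earlier results of these data known. Named miRNAs are the members, up to 2 leading tested entries of each marker list, the 3 most abundant and the abundant called entries of the collagen and fibrosis list, and the 3 rows most like miR-29a, miR-29b and miR-29c. Alternatives were other pseudocounts, filters and scalings, the replicate number as a term, edgeR 4.0.16 and DESeq2 1.42.0 on whole reads, calls without a fold minimum, and leaving out libraries in turn. Sums of rows 1 base apart were added after the data were seen.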

Additional observations from a re-analysis of the deposited data

How the results depend on the processing

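Of 185 recomputed values, 172 kept their direction and call or stayed within the limits set for them, and no tested member changed direction. Nor did the ratios of miR-29b and miR-29c to miR-29a, the only ratios recomputed. With a pseudocount of 10 the calls over all tested miRNAs fell from 127 to 77 higher in dermal papilla cells and from 100 to 40 higher in hair matrix cells, 1 member was called, and miR-29c and miR-29d-5p, at -0.49 and -0.34, lost their calls. The differences in log2 ratio to miR-29a became -1.42 for miR-29b and -0.29 for miR-29c, since 10 exceeds the dermal papilla level of miR-29c. A filter of 10 RPM left 80 and 47 calls and 1 member called, as only miR-29a and miR-29b were tested. With no fold minimum 212 and 204 were called and 4 members, among them miR-29d-5p, whose direction the filter fixed. The sum was 4.08-fold higher in hair matrix cells when only rows with the shared seed at bases 2 to 8 were counted, against 1.17-fold for the whole family. That setting leaves out miR-29a, the most abundant member, through its extra 5′ base. Median centring and quantile normalization moved the median log2 change of all tested miRNAs from -0.01 to -0.29 and -0.23, and miR-29a to -0.47 and -0.53. The adjusted p of miR-29a ran from 5.33e-07 to 0.0748, and that of miR-29d-3p from 0.0418 after median centring to 0.830 without hair matrix replicate 3. Without any 1 library the log2 ratio difference ran from -1.92 to -1.83 for miR-29b and from -1.52 to -1.32 for miR-29c. Replicate numbers did not pair the libraries (correlations of deviations 0.14, 0.08 and -0.27), and with the replicate block 3 members were called, miR-29d-5p among them. At low levels depth limits miR-29e, with 3 to 6 reads per hair matrix library.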

Other observations

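When all entries of the table were grouped by bases 2 to 8 as listed, giving 2142 groups, the miR-29a entry stood alone in its group and ranked 24th in each dermal papilla library and 19th or 20th in hair matrix libraries. The group of miR-29b, miR-29c and miR-29d-3p ranked 153rd to 155th and 89th to 92nd. The letters shared by that group occurred in 1 entry outside the family, miR-12048, named after its value was seen, at a mean of 0.00687 RPM and outside bases 2 to 8.

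Hair matrix replicate 3 had 110 reads of miR-29d-3p against 53 and 54 in the other two hair matrix libraries, and 117 reads of miR-29c against 153 and 154. The level of miR-29d-3p was 94.0% of miR-29c there, against 34.6% and 35.1% in the others and 145% to 204% in dermal papilla libraries. The rows differ by G19A, and how reads were divided between them was not tested.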
